A study of Homo sapiens with 21 samples.

Results

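The 2 U2AF1 libraries of the series were made by fPAR-CLIP, a fluorescence-based form of crosslinking and immunoprecipitation, after digestion with 1.5 or 15 U/ml of an RNase A and RNase T1 mixture, with 1 library at each strength. The members are all clusters of crosslinked reads that the submitters deposited for these libraries, 8003 at 1.5 U/ml and 2760 at 15 U/ml, together 10763 of the 855812 clusters in the 17 libraries of the series that have a cluster file. Both libraries came from Flp-In T-REx 293 cells, an established human embryonic kidney line, carrying a stably integrated FLAG-HA-tagged U2AF1 transgene. In both, RNA was labelled with 250 µM 4-thiouridine for 2 hours, crosslinked with 312 or 365 nm light and recovered with anti-FLAG beads from a chromatin extract. The tagged protein is supplied from a transgene, so binding of the cell's own untagged U2AF1 was not measured. The sample titles give the RNase A/T1 strength, whereas the shared protocol text names RNase I for chromatin extracts. The titles were followed. With 1 library at each strength there is no replicate check and no test of a difference between conditions. Intervals below are 95% and cover counting error only, and clusters that are copies of one sequence are not independent.

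U2AF1 is the small subunit of the U2 auxiliary factor, which marks the end of an intron before splicing. It contacts the AG dinucleotide at the 3′ splice site, while its partner U2AF2 binds the run of pyrimidines just upstream, and together they help the U2 small nuclear ribonucleoprotein onto the branch point. In PAR-CLIP, crosslinked 4-thiouridine is read as a T-to-C change, so a cluster needs a T in its sequence. RNase A cuts after pyrimidines and RNase T1 after G.

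The sequences of clusters at 3′ splice sites are shown first because they carry the signal for which U2AF1 is known. They are written 5′ to 3′ as DNA, on the coding strand and build hg38, with every CAG or TAG in capitals. In RPL5, a protein of the large ribosomal subunit, the cluster held 33 reads at 1.5 U/ml (conversion fraction 0.848) and 26 at 15 U/ml (fraction 1). Both clusters began at the same base and the cluster at 15 U/ml ended earlier.
RPL5, 1.5 U/ml, chr1:92840539-92840564, plus strand: cctttgtttCAGatggaggagatgta
RPL5, 15 U/ml, chr1:92840539-92840561, plus strand: cctttgtttCAGatggaggagat
In EIF4A1, a helicase of translation initiation, the cluster held 31 reads at 1.5 U/ml and 24 at 15 U/ml. It also carries snoRNA names, and similar counts were listed at copies of the gene, such as 25 and 23 reads at the pseudogene EIF4A1P10. Whether reads are shared among these copies was not tested.
EIF4A1, 1.5 U/ml, chr17:7576517-7576547, plus strand: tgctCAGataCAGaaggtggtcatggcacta
EIF4A1, 15 U/ml, chr17:7576522-7576543, plus strand: agataCAGaaggtggtcatggc
In OGT, the enzyme that adds N-acetylglucosamine to nuclear and cytoplasmic proteins, the counts were 27 and 8 reads, and in GOLT1B 29 and 5 reads.
OGT, 1.5 U/ml, chrX:71557489-71557516, plus strand: cTAGattgtctgtgattggaCAGactat
GOLT1B, both libraries, chr12:21508361-21508390, plus strand: ttgtattttctttctctttTAGgttttatt
NOP58, with 25 and 11 reads, was also among the 6 with most reads summed over both libraries. Other 3′ splice-site clusters were seen in one library only. BRD2 (43 reads) and HNRNPAB (24 reads) were among the top clusters seen only at 1.5 U/ml, and PTMS (34 reads) was among those seen only at 15 U/ml.
BRD2, 1.5 U/ml only, chr6:32975011-32975054, plus strand: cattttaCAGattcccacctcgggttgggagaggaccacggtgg
HNRNPAB, 1.5 U/ml only, chr5:178207090-178207122, plus strand: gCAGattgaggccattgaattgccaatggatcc
PTMS, 15 U/ml only, chr12:6770155-6770189, plus strand: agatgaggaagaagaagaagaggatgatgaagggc
The PTMS cluster is a run of A and G with few T, and it holds no CAG or TAG. PRRC2B (29 reads at 1.5 U/ml only) and a cluster in ribosomal DNA (197 reads at 15 U/ml only) were also among the top 3 of their library.

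The 3′ splice-site label in both files was found only on the plus strand. It marked 464 plus-strand clusters and no minus-strand cluster at 1.5 U/ml, and 102 and none at 15 U/ml. On the minus strand, 424 clusters at 1.5 U/ml and 76 at 15 U/ml spanned an exon and an intron without any splice-site label, and no plus-strand cluster did so. These unlabelled clusters held the triplet found at intron ends about as often as the labelled ones: CAG or TAG was present in 89.6% of them at 1.5 U/ml and in 89.5% at 15 U/ml, against 90.5% and 81.4% of the labelled plus-strand clusters. The triplet is common, and over all clusters it was present in 63.6% and 53.0%. In the CDS class it was present in 71.8% and 59.2%, so the triplet alone does not mark an intron end. Examples chosen after the values were seen are POLE, the catalytic subunit of DNA polymerase epsilon, with 32 reads at 1.5 U/ml only, and UBR4, a ubiquitin ligase, with 14 reads at 15 U/ml.
POLE, 1.5 U/ml only, chr12:132661155-132661183, minus strand: ccttttttttttttttCAGgtatgctgtg
UBR4, 15 U/ml, chr1:19096619-19096653, minus strand: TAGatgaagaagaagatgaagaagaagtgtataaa
LMBR1, 15 U/ml, chr7:156833768-156833795, minus strand: CAGatgaacaagaagatgaagatgccat
The POLE cluster shows a long T run before its CAG, and the UBR4 and LMBR1 clusters show purine runs after theirs. Labelled plus-strand clusters and unlabelled minus-strand boundary clusters are both counted below as 3′ boundary clusters. This choice was not checked against exon annotation.

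The library at 1.5 U/ml had 2.9 times as many clusters as the one at 15 U/ml, but 0.859 times as many when the minimum number of reads was matched as a share of each library's reads. Reads in clusters summed to 95561 and 53598, with a mean of 11.9 reads per cluster at 1.5 U/ml and 19.4 at 15 U/ml and a median of 6 in both. Without ribosomal DNA the means were 10.5 and 12.7, and for protein-coding clusters 7.13 and 7.14. Most clusters were shallow: 83.2% and 78.5% held fewer than 10 reads. Clusters had a median length of 28 nt in both libraries. Quartiles were 25 and 34 nt at 1.5 U/ml and 25 and 35 nt at 15 U/ml. Among equal numbers of clusters with most reads the median was 2 nt longer at 1.5 U/ml. That choice kept clusters of 7 or more reads at 1.5 U/ml and of 4 or more at 15 U/ml. When clusters under 10 reads were dropped from each, median lengths were 31 nt at 1.5 U/ml and 32 nt at 15 U/ml. The interval of this difference, -4 to 1 nt, includes no difference. The longer median at 1.5 U/ml was thus not seen at an equal read minimum. The mean read length was alike, with a median over clusters of 24 nt in each library.

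The RNA types differed more than the cluster sizes. Ribosomal DNA, which encodes the RNAs of the ribosome, took 13.1% of reads at 1.5 U/ml and 36.9% at 15 U/ml, with 12519 reads in 64 clusters and 19765 reads in 99 clusters. Protein-coding genes went the other way, with 37.2% of reads (4982 clusters) at 1.5 U/ml and 18.2% (1366 clusters) at 15 U/ml. Transfer RNAs held similar shares, 16.4% and 15.3%. Clusters named for 5.8S rRNA loci were 36 and 51 in number and held 7.63% and 18.4% of reads. They are part of the ribosomal DNA group, which also takes in clusters under other names that lie in annotated rRNA genes, on the ribosomal contigs, or share at least 18 nt with such a cluster. Because these reads are listed again at each genomic copy, the shares depend on the number of copies. With 1 cluster kept for each family of sequences that share 18 nt, ribosomal DNA held 5.49% of reads at 1.5 U/ml and 13.6% at 15 U/ml, and protein-coding genes 52.5% and 36.7%.

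**Figure D1:**
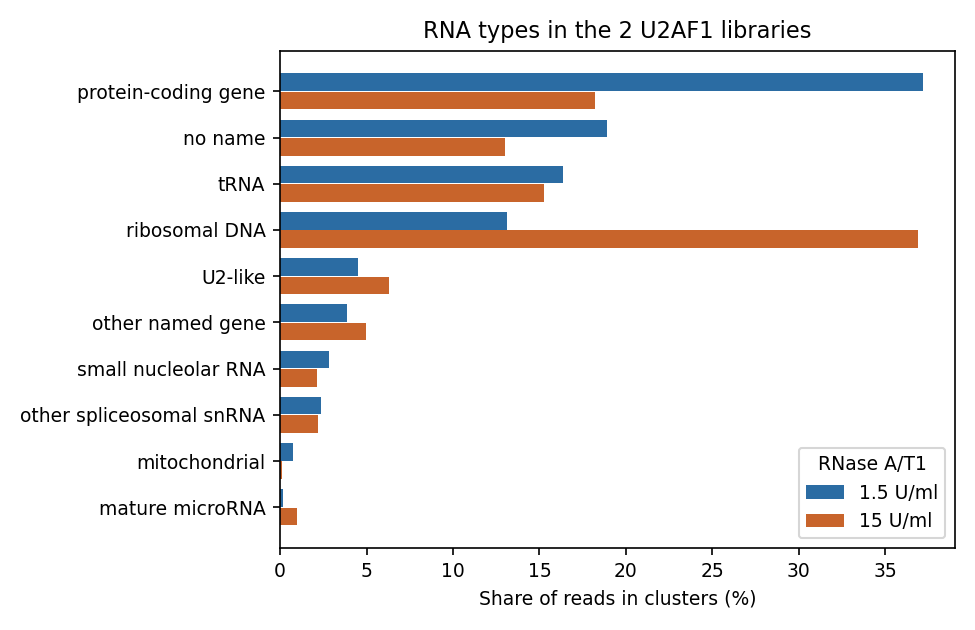
Share of reads in clusters (percent, horizontal axis) by RNA type for the library at 1.5 U/ml (blue) and at 15 U/ml (orange), 1 library each and so without error bars. Ribosomal DNA rises from 13.1% to 36.9% and protein-coding genes drop from 37.2% to 18.2%, while tRNA stays near 16.4% and 15.3%.

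The single cluster with most reads in each library resembled U2 snRNA, the RNA of the particle that U2AF1 helps to recruit. This cluster, deposited under the name SNORA75, held 2752 reads at 1.5 U/ml and 1785 at 15 U/ml. U2-like clusters were defined as those within 2 edits (substitutions, insertions or deletions) of a cluster that is named for a U2 pseudogene, such as RNU2-13P, and holds GGCTAAG. The sequences are shown with the shared GGCTAAG in capitals.
SNORA75 by name, 1.5 U/ml, chr12:12603882-12603906, minus strand: gcttctcggcctttGGCTAAGatca
No name, 1.5 U/ml, chr4:168327083-168327105, plus strand: cttctcggcctttGGCTAAGatc
No name, 1.5 U/ml, chr11:63577726-63577751, plus strand: cgcttctcggcctcttGGCTAAGatc
RNU2-13P, 1.5 U/ml, chr2:11561196-11561221, plus strand: tgcttctcggccttttGGCTAAGacc
The cluster on chromosome 4 held 671 reads at 1.5 U/ml and 957 at 15 U/ml, and the one on chromosome 11 held 344 and 249 reads. All U2-like clusters together had 4296 reads, or 4.5%, in 33 clusters at 1.5 U/ml and 3369 reads, or 6.29%, in 30 clusters at 15 U/ml. In reads these clusters were largely the same places: those overlapping the other library held 95.8% of U2-like reads at 1.5 U/ml and 95.6% at 15 U/ml. Other spliceosomal snRNAs held 2.38% and 2.18% of reads. RNU5D-1, a U5 gene, had 1190 reads in 1 cluster at 1.5 U/ml and no cluster at 15 U/ml. RNU6ATAC, an RNA of the minor spliceosome, had no cluster at 1.5 U/ml and 77 reads at 15 U/ml.
RNU5D-1, 1.5 U/ml only, chr1:44731061-44731105, minus strand: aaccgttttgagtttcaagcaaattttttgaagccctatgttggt
RNU6ATAC, 15 U/ml only, chr9:134164488-134164531, minus strand: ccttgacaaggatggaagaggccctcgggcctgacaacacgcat

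Transfer RNA fragments were prominent in both libraries, often under another gene's name. The cluster with most tRNA reads at 1.5 U/ml lay in TRR-ACG2-3, an arginine tRNA gene, with 878 reads. At 15 U/ml the same stretch appeared under the name U3, with 440 reads.
TRR-ACG2-3, 1.5 U/ml, chr6:27215200-27215233, plus strand: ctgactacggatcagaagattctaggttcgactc
U3 by name, 15 U/ml, chr3:45689010-45689041, minus strand: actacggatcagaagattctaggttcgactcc
Of the 1130 reads under the name U3 at 1.5 U/ml, 868 had tRNA sequence, and at 15 U/ml 440 of 584. Of the 477 and 150 reads under the name U1, 332 and 131 shared a stretch with a tRNA. The read counts of these names are therefore not counts of U3 or U1 RNA alone. Clusters overlapping the other library held 80.4% of tRNA reads at 1.5 U/ml and 66.7% at 15 U/ml.

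Mature microRNAs made up little of either library, but more of the one at 15 U/ml. Clusters over RefSeq mature microRNAs (at least 15 nt on the same strand, GRCh38.p14) numbered 8 at 1.5 U/ml, with 136 reads or 0.142%, and 22 at 15 U/ml, with 519 reads or 0.968%. They covered 7 and 16 microRNAs, of which 2 were in both libraries: miR-378i had 49 and 9 reads, and miR-320e had 39 and 5. The 4 microRNAs with most reads at 15 U/ml, miR-20b-5p (112 reads), miR-29b-3p (99 reads), miR-501-5p (60 reads) and miR-181b-5p (54 reads), had no cluster at 1.5 U/ml. Their RefSeq sequences are given with the seed, bases 2 to 8, in capitals, and these 4 seeds differ. The seed of miR-181b-5p is shared by miR-181c-5p, which had 16 reads at 15 U/ml only. Reads of miR-29b-3p and miR-181b-5p were summed over 2 clusters each, and those of miR-34a-5p (32 reads) came from 1. The order by reads may thus depend on the number of copies, which was not tested. With 1 cluster kept for each sequence family, microRNAs held 115 reads (0.193%) at 1.5 U/ml and 381 (1.59%) at 15 U/ml.
hsa-miR-20b-5p: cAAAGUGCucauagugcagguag
hsa-miR-29b-3p: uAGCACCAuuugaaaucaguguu
hsa-miR-501-5p: aAUCCUUUgucccugggugaga
hsa-miR-181b-5p: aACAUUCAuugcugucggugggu
One further cluster under a microRNA gene's name, MIR320A, held 925 reads at 15 U/ml and had no counterpart at 1.5 U/ml. The median conversion fraction of microRNA clusters, 0.353 at 1.5 U/ml (8 clusters) and 0.250 at 15 U/ml (22 clusters), lay under the 0.400 for all clusters. Medians under 0.400 were not particular to microRNAs. They were 0.333 and 0.293 for U2-like clusters and 0.347 and 0.351 for tRNA clusters.

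Within protein-coding genes, clusters at 1.5 U/ml lay more often at 3′ boundaries and in introns, and clusters at 15 U/ml more often inside coding sequence. Of 4982 clusters at 1.5 U/ml, 824 were 3′ boundary clusters, or 16.5% (Wilson interval 15.5% to 17.6%), against 152 of 1366, or 11.1% (9.57% to 12.9%), at 15 U/ml. Clusters within introns alone were 38.4% (37.1% to 39.8%) and 26.3% (24% to 28.7%). Clusters in coding sequence away from a boundary were 22.7% (21.5% to 23.9%) and 38.6% (36.0% to 41.2%). Clusters at 5′ splice sites were few, with 61 and 32, or 1.22% and 2.34%. The intervals of these 4 pairs did not overlap, but they describe the counting of clusters and not the spread of replicate libraries.

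**Figure D2:**
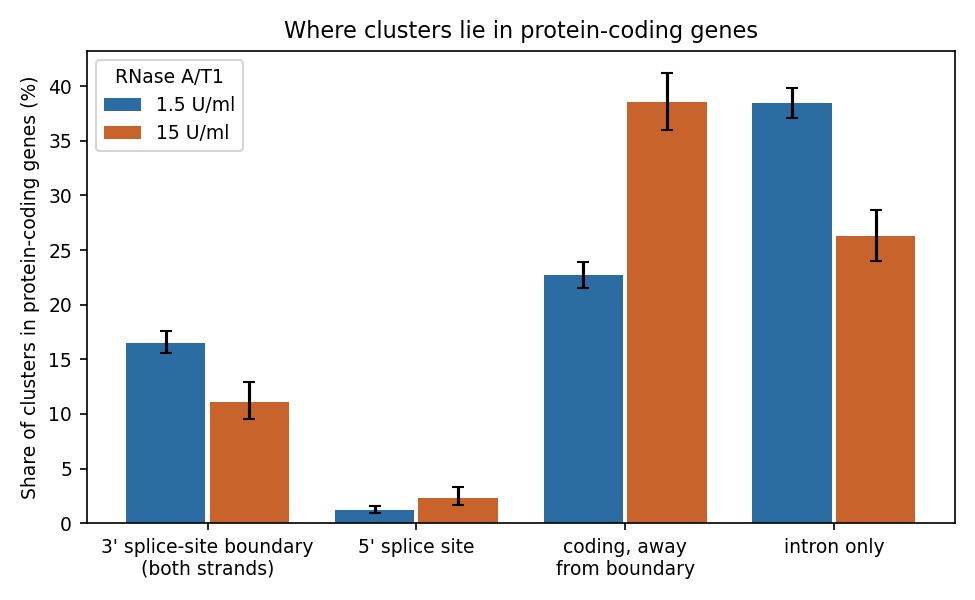
Share of protein-coding-gene clusters (percent, vertical axis) by region at 1.5 U/ml (blue, 4982 clusters) and 15 U/ml (orange, 1366 clusters). Bars start at 0 and whiskers are 95% Wilson intervals; 3′ boundary clusters go from 16.5% to 11.1%, introns from 38.4% to 26.3% and coding sequence away from boundaries from 22.7% to 38.6%.

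Cluster number differs between the libraries, so the same shares were taken over the 1366 protein-coding clusters with most reads in each library. At 15 U/ml these were all protein-coding clusters, and at 1.5 U/ml only the deeper ones. The step therefore matched number and not depth. The 3′ boundary share at 1.5 U/ml was then 22.0% (19.8% to 24.2%) against 11.1%, and the coding share 24.5% (22.2% to 26.8%) against 38.6%. The intron shares came closer, 29.6% (27.2% to 32.1%) and 26.3% (24% to 28.7%), with intervals that overlap. Among clusters with at least 10 reads, 24.9% of 618 at 1.5 U/ml and 11.5% of 139 at 15 U/ml were at 3′ boundaries. Of the same clusters, 27.2% and 25.2% were intronic, and 23.3% and 37.4% were in coding sequence away from a boundary. The 3′ boundary difference was thus larger among the deeper clusters and the intron difference smaller.

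Over all clusters of any RNA type, the labelled 3′ splice-site class held 5.8% (5.31% to 6.33%) of clusters at 1.5 U/ml and 3.70% (3.05% to 4.47%) at 15 U/ml. Without the clusters named for 5.8S rRNA these were 5.82% and 3.73%. With the minus-strand boundaries added, 888 clusters or 11.1% and 178 clusters or 6.45% were at 3′ boundaries. The difference was present on each strand: 11.6% against 7.11% of plus-strand clusters, and 10.6% against 5.73% of minus-strand clusters. In reads, 3′ boundary clusters held 7.12% and 2.72%, and without the 5.8S-named clusters 7.71% and 2.89%. Intronic clusters held 30.5% of reads at 1.5 U/ml and 37.6% at 15 U/ml, but 25.4% and 24.2% without the 5.8S-named clusters and 25% and 19.4% without any ribosomal DNA. The order of the libraries in intronic reads was thus opposite without these clusters, and ribosomal DNA made up 28.9% of intronic reads at 1.5 U/ml and 67.4% at 15 U/ml. Over all clusters, the CDS label covered 18.4% of clusters at 1.5 U/ml and 22.0% at 15 U/ml. That order was the opposite among clusters with at least 10 reads, as it was for introns. Within protein-coding genes, coding clusters away from a boundary kept their order at this minimum, with 23.3% and 37.4%. Unannotated clusters held 38.1% and 33.5% of reads, and tRNA sequence accounted for 35.8% and 38.5% of those.

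The cluster sequences themselves differed in base composition. T made up 33.7% of bases at 1.5 U/ml and 24.7% at 15 U/ml, and G 24.5% and 31.0%. A rose from 21% to 24.1%, while C was nearly level at 20.8% and 20.1%. The same direction held for T and G in each annotation class. In introns T was 39.3% and 25.5%, in coding sequence 27.8% and 22.0%, and in 3′ boundary clusters 34.7% and 28.3%. Leaving out the 5.8S-named clusters gave 33.7% and 24.9% T over all clusters, and the 1366 protein-coding clusters with most reads in each library had 33.8% and 23.9%.

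**Figure D3:**
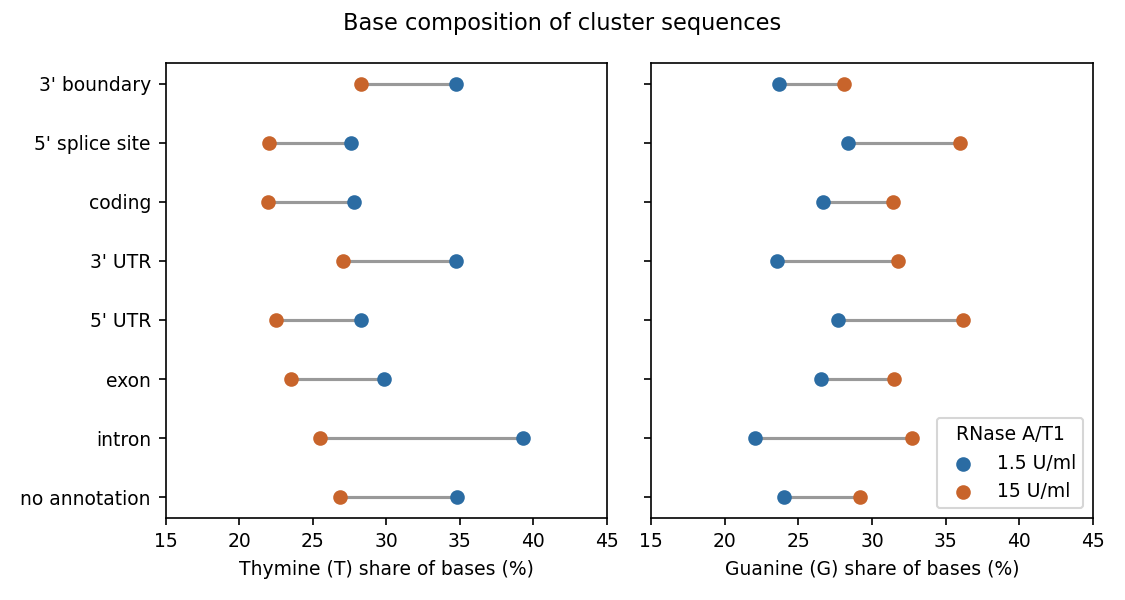
Share of T (left) and G (right) among the bases of cluster sequences (percent, horizontal axes) by annotation class at 1.5 U/ml (blue) and 15 U/ml (orange); each point pools all clusters of a class in 1 library, and the axes start at 15%. In every class T is lower and G higher at 15 U/ml, with the widest T gap in introns, 39.3% against 25.5%.

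Short motifs showed the same split. A run of 5 T was found in 20.9% (19.8% to 22.0%) of protein-coding clusters at 1.5 U/ml and 8.35% (6.99% to 9.93%) at 15 U/ml. The purine motif GAAGA was found in 10.2% (9.43% to 11.1%) and 25.3% (23.1% to 27.7%). GAA-rich purine stretches are known as exonic splicing enhancers, and the motif was in 12.6% (11% to 14.4%) of coding clusters at 1.5 U/ml and 32.3% (28.6% to 36.2%) at 15 U/ml, and in 7.47% (6.37% to 8.73%) and 16.2% (12.7% to 20.3%) of intronic ones. Over all hexamers in protein-coding clusters, with 1 cluster per sequence family, TTTTTC was the most frequent at 1.5 U/ml, in 10.7% of 4569 clusters, and ranked 59th at 15 U/ml with 3.55% of 1297. AGAAGA was the most frequent at 15 U/ml, in 11.4%, and ranked 32nd at 1.5 U/ml with 4.16%. Motifs were read on the cluster's own strand only, and overlapping hexamers such as AGAAGA and GAAGAA share bases. Over the 629 protein-coding gene names with such a cluster in both libraries, with 1898 clusters at 1.5 U/ml and 982 at 15 U/ml, T made up 31.9% and 24% of bases. A run of 5 T was then in 18.4% (16.7% to 20.2%) and 8.35% (6.78% to 10.2%) of clusters, and GAAGA in 11% (9.63% to 12.4%) and 26.7% (24% to 29.5%).

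At 3′ boundaries of protein-coding genes, CAG or TAG was present in 90.2% (87.9% to 92.0%) of 824 clusters at 1.5 U/ml and 87.5% (81.3% to 91.8%) of 152 at 15 U/ml, with overlapping intervals. Over all protein-coding clusters it was present in 66.8% and 56.7%. A pyrimidine run of at least 6 bases followed within 6 bases by CAG or TAG was present in 37.4% (34.1% to 40.7%) and 28.3% (21.7% to 35.9%). GAAGA was present in 11.8% (9.75% to 14.2%) and 28.9% (22.3% to 36.6%). Of clusters with a single CAG or TAG, 489 and 101, the triplet was CAG in 59.3% (54.9% to 63.6%) and 61.4% (51.6% to 70.3%). Its G lay a median of 14 nt from the cluster's 5′ end at 1.5 U/ml and 11 nt at 15 U/ml, with 16 and 17 nt after it. Upstream of the triplet T made up 57.6% of bases at 1.5 U/ml and 53.0% at 15 U/ml, and downstream 29.5% and 21.9%. These clusters were chosen by annotation at exon-intron boundaries, so that they reach both sides was fixed by the choice. Whether the triplet is the splice site itself was not tested. The T content differed by more points after the triplet than before it, and no interval was computed for these shares.

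The ends of clusters differed less than their interiors. Clusters ended in T in 34.1% (33.1% to 35.2%) of cases at 1.5 U/ml and 31.9% (30.2% to 33.7%) at 15 U/ml, in C in 26.4% and 26.7%, and in G in 16.3% (15.5% to 17.1%) and 20.0% (18.6% to 21.6%). They began with G in 18.2% (17.3% to 19%) and 23.2% (21.7% to 24.8%). A cluster's end is the outer edge of overlapping reads and need not be a single cut.

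Conversion was highest at 3′ boundaries in both libraries. The median conversion fraction, the share of reads in a cluster with a T-to-C change, was 0.600 there at both strengths, against 0.400 in introns and in coding sequence away from boundaries. All reads carried the change in 24% of 3′ boundary clusters at 1.5 U/ml and 21.9% at 15 U/ml, compared with 15.4% and 16.0% of intronic clusters and 8.64% and 6.47% of coding clusters away from boundaries. Within the labelled plus-strand class the medians were 0.653 and 0.536. Clusters had a mean of 1.5 T-to-C locations at 1.5 U/ml and 1.63 at 15 U/ml, and a single location in 65.5% and 61.9%. Among the 2760 clusters with most reads in each library the shares with 1 location were 45% and 61.9%, the opposite order.

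Of the clusters at 1.5 U/ml, 489 or 6.11% (5.61% to 6.66%) shared 1 or more bases, strand matched, with a cluster at 15 U/ml, and of those at 15 U/ml 489 or 17.7% (16.3% to 19.2%) did so. With equal numbers of clusters with most reads the share was 14.6% both ways, and with the minimum matched as a share of reads it was 16.5% at 1.5 U/ml and 14.2% at 15 U/ml, so the order of the libraries depends on the minimum. These clusters held 33.7% of reads at 1.5 U/ml and 32.3% at 15 U/ml. Without 5.8S-named clusters the shares were 6.0% and 17.6% of clusters and 32.0% and 35% of reads. As an outside comparison, the series has a library of CPSF1, a polyadenylation factor, with 21383 clusters. Of all U2AF1 clusters, 1.51% at 1.5 U/ml and 2.39% at 15 U/ml overlapped one of them. The CPSF1 library was made with a different enzyme, RNase I, and its RNA was labelled at a lower concentration for a longer time. The overlap expected from the list sizes alone was not computed, so these shares do not measure specificity.

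Sharing rose with depth up to a point. At 1.5 U/ml, 2.32% of clusters with 5 to 9 reads, 13.3% with 10 to 19, 46.1% with 20 to 49 and 63.3% with 50 or more overlapped the other library. At 15 U/ml these were 13.4%, 30.8%, 42.9% and 31.3%. The lower value for the deepest clusters at 15 U/ml includes ribosomal DNA, of which 21 of 99 clusters overlapped. By RNA type at 15 U/ml, 53.3% of U2-like clusters, 45.2% of tRNA clusters and 14.3% of protein-coding clusters were shared. These shares count overlap at the same genomic place. Counted by sequence family instead, 83.3%, 77.4% and 14.8% of these clusters had a family member in the other library. Of 3′ boundary clusters, 28.7% (22.5% to 35.7%) at 15 U/ml and 6.19% (4.79% to 7.98%) at 1.5 U/ml were shared. For clusters in the CDS class the shares were 15.3% (12.7% to 18.4%) at 15 U/ml and 6.33% at 1.5 U/ml, so at 15 U/ml the 3′ boundary share was the higher of the pair. The 2 sets share minus-strand boundary clusters. Of the CDS class, 556 of 606 clusters at 15 U/ml and 1181 of 1470 at 1.5 U/ml lay away from a boundary.

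**Figure D4:**
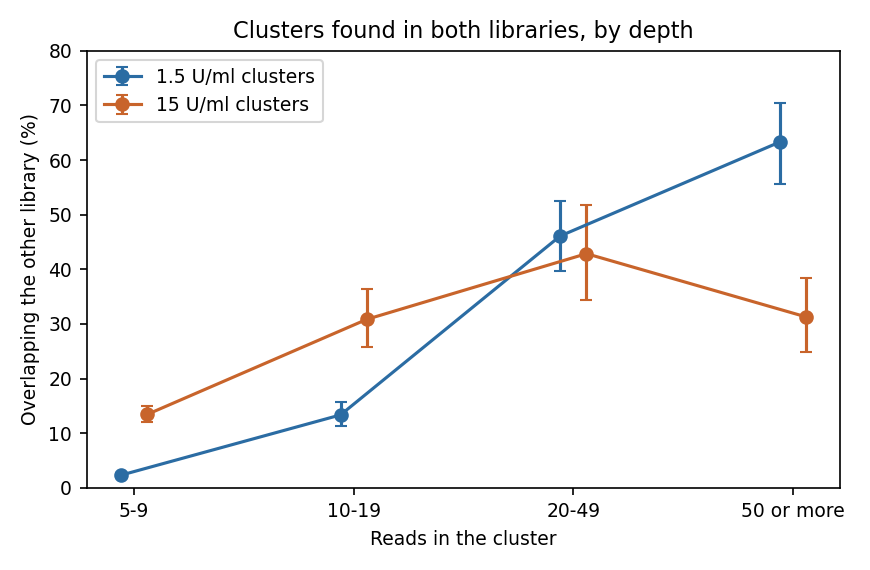
Share of clusters that overlap a cluster of the other library (percent, vertical axis) by the number of reads in the cluster, for clusters at 1.5 U/ml (blue) and 15 U/ml (orange), with 95% Wilson intervals. The share at 1.5 U/ml climbs from 2.32% to 63.3%, and that at 15 U/ml reaches 42.9% at 20 to 49 reads and is 31.3% at 50 or more.

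Where a cluster at 1.5 U/ml overlapped exactly 1 at 15 U/ml and the reverse, the pair could be compared directly. There were 486 such pairs. The cluster at 1.5 U/ml was longer in 329, equal in 45 and shorter in 112, with median lengths of 32 and 28 nt. It also held more reads, with a median of 15 against 8. In the 127 pairs with no more reads at 1.5 U/ml it was still longer in 76 and shorter in 35, with medians of 30 and 28 nt. The 3′ end lay further upstream at 15 U/ml in 295 pairs and further downstream in 118, and the 5′ end further downstream in 232 and upstream in 158. The shift of the 3′ end was thus the more frequent of the pair. In the 127 pairs with no more reads at 1.5 U/ml, the 3′ end lay further upstream at 15 U/ml in 69 and further downstream in 38. The 5′ end was level there, further downstream in 49 and upstream in 48. The conversion fraction was higher at 15 U/ml in 297 pairs and higher at 1.5 U/ml in 147, with medians of 0.500 and 0.432. In the pairs with no more reads at 1.5 U/ml these counts were 70 and 37. The 48 pairs at 3′ boundaries had median fractions of 0.690 at 1.5 U/ml and 0.817 at 15 U/ml, higher at 15 U/ml in 31 pairs and at 1.5 U/ml in 13.

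Reads were summed over the clusters of each gene, and the share of a library's reads was compared for the 102 gene names with at least 20 reads in both. The log2 ratio of shares, 1.5 over 15 U/ml, had a median of -0.16. It was past 2-fold toward 1.5 U/ml for 6 genes (5.88%) and toward 15 U/ml for 15 genes (14.7%), or 20.6% either way. For 10 of these names the exact conditional binomial interval lay wholly past 2-fold. Of the calls, 71.4% were toward 15 U/ml, and 82.8% when 5.8S-named clusters were left out of the totals, which moved the median to -0.34. Without all ribosomal DNA the median was -0.57 and 89.2% of calls were toward 15 U/ml, so the centre of the ratios depends on the scaling. Without ribosomal DNA genes, but with the same totals, 6.12% of 98 names were past 2-fold toward 1.5 U/ml and 11.2% toward 15 U/ml, or 17.3% either way.

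Toward 1.5 U/ml, the protein-coding genes with the largest ratios had many clusters each. PRKDC, the catalytic subunit of DNA-dependent protein kinase, had 165 reads in 21 clusters at 1.5 U/ml and 23 reads in 4 clusters at 15 U/ml. Its log2 ratio was 2.01 (1.37 to 2.71), and all 165 reads at 1.5 U/ml were intronic. ZNF711, a zinc finger transcription factor, had 297 reads in 25 clusters and 49 reads in 5 clusters, a log2 ratio of 1.77 (1.33 to 2.23). BRD2, a bromodomain protein that binds acetylated histones, had 189 and 42 reads, a log2 ratio of 1.34 (0.85 to 1.85), of which 66 and 9 were at 3′ boundaries. OGT had 80 and 22 reads, a log2 ratio of 1.03 (0.33 to 1.78), of which 58 and 8 were at 3′ boundaries. The names RP11-353N4.5 (log2 ratio 2.25) and ZBED9 (1.54) were also past 2-fold, and their clusters had tRNA sequence. SRSF11, MCM7, U1, DDX17, PRRC2A and MAT2A, the next in order, had log2 ratios from 0.97 to 0.72 and were within 2-fold.

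Toward 15 U/ml, ribosomal DNA names led. CH507-513H4.1 had 503 reads at 1.5 U/ml and 1894 at 15 U/ml, a log2 ratio of -2.75, and CH507-528H12.1 had 709 and 2231, a log2 ratio of -2.49. RNA5-8S5 itself had 6249 and 7615 reads, and hsa-mir-6724-1, a microRNA name within ribosomal DNA, 1142 and 1864. Ribosomal DNA reads are listed at each genomic copy, so these names are not separate counts. The largest cluster held 375 reads at 1.5 U/ml under both CH507 names. At 15 U/ml it held 515 under both and under hsa-mir-6724-1. With 1 cluster per sequence family, ribosomal DNA held 3274 reads (5.49%) at 1.5 U/ml and 3275 (13.6%) at 15 U/ml. RNU1-148P, a U1 pseudogene, had 202 and 452 reads, a log2 ratio of -2.00 (-2.24 to -1.75). RNU6ATAC31P and RNU6ATAC30P had 33 and 60 and 22 and 38 reads. Among protein-coding genes, PMF1 had 148 and 255 reads, all intronic, RPL5 had 33 and 53, and HNRNPDL had 29 and 44. SRSF1, a splicing activator, had 20 and 35 reads, a log2 ratio of -1.64 (-2.51 to -0.81). At 1.5 U/ml its 2 clusters were intronic and also carried the name U3, and at 15 U/ml its 4 clusters lay in its coding and 5′ untranslated sequence. RYR2 and RNA5SP132 complete the 12 largest in this direction, with log2 ratios of -1.20 and -1.53.

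**Figure D5:**
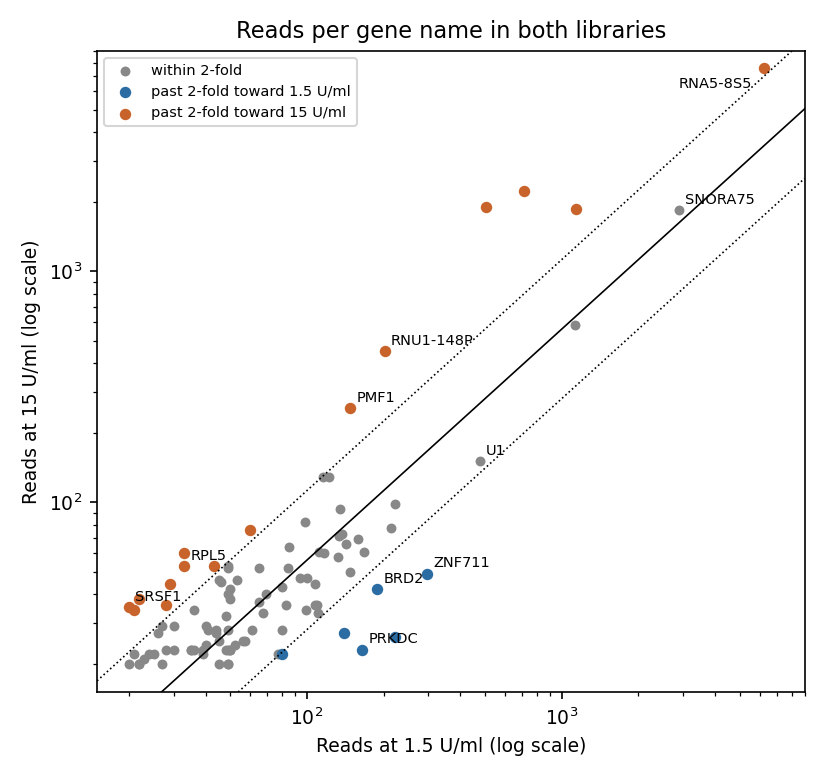
Reads per gene name at 1.5 U/ml (horizontal) and 15 U/ml (vertical), both on log scales, for the 102 names with at least 20 reads in each library; the solid line marks equal shares of each library's reads and the dotted lines 2-fold. The 15 orange names past 2-fold toward 15 U/ml include the ribosomal DNA names at the top, and the 6 blue names toward 1.5 U/ml include PRKDC, ZNF711 and BRD2.

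Genes of the splicing machinery, fixed as lists, were modest sources of reads in both libraries. Of 20 factors that recognize the 3′ splice site or branch point, 13 had a cluster at 1.5 U/ml and 7 at 15 U/ml, with 349 and 121 reads. The 3 with at least 20 reads in both, RBM39 (80 and 43 reads), SF3B3 (52 and 24) and U2AF1 (35 and 23), were all within 2-fold. SF1, the branch-point binding protein, had 50 and 6 reads, and SF3B1, the core of the U2 particle's SF3b complex, had 37 reads and no cluster. Of the 14 SR proteins, 4 were compared and 1, SRSF1, was past 2-fold, with SRSF3 at 134 and 71 reads and SRSF7 at 69 and 40. Of the 18 hnRNP proteins, 7 were compared and 1, HNRNPDL, was past 2-fold. HNRNPU, a nuclear matrix protein, had 221 and 98 reads, HNRNPH1 168 and 61, and HNRNPA2B1 158 and 69. HNRNPC, which binds U-rich tracts, had 55 and 5 reads. The median log2 ratios of these lists were 0.06, 0.02 and 0.19, beside -0.16 for all genes compared, of which 20.6% were past 2-fold. With 5.8S-named clusters left out of the totals they were -0.12, -0.16 and 0.0087, so the sign of the first 2 depends on the scaling, and the median of all genes compared was -0.34.

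Among noncoding RNAs, MALAT1, a nuclear-retained transcript, had 158 reads in 4 clusters at 1.5 U/ml and 10 reads in 1 cluster at 15 U/ml, a log2 ratio of 3.15 (2.23 to 4.24), below the minimum for comparison at 15 U/ml. No cluster was named for the listed abundant nuclear RNAs such as the RNase P RNA, or for the listed cytoplasmic RNAs, under those names. Ribosomal protein genes and pseudogenes had 1618 reads over 105 names at 1.5 U/ml and 715 reads over 55 names at 15 U/ml. Of the 7 compared, 1 (RPL5) was past 2-fold, beside 20.6% of all genes compared, and the median log2 ratio was -0.37, beside -0.16. Histone genes had 57 and 11 reads. Mitochondrially encoded names had 166 and 62 reads, with MT-ATP6 at 109 and 16 and MT-ND1 at 12 and 20. Clusters of the mitochondrial RNA type, which take in those without a name, held 694 reads or 0.726% at 1.5 U/ml. Of these reads, 417 were in 1 cluster. At 15 U/ml the type held 74 reads or 0.138%. Spliceosomal snRNA names, mostly pseudogenes, had 1962 and 1074 reads, or level shares of 2.05% and 2.00% of all reads. Of the 4 compared, 3 were past 2-fold toward 15 U/ml, beside 14.7% of all genes compared. These were RNU1-148P, RNU6ATAC31P and RNU6ATAC30P, with 1 cluster each in each library. The minimum leaves out names found in 1 library only, such as RNU5D-1 (1190 reads at 1.5 U/ml) and RNU6ATAC (77 reads at 15 U/ml). The 4 compared therefore do not describe snRNAs as a group.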

How the data were processed

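Clusters came as 1 table per library with coordinates, sequence, annotation, read counts and a conversion fraction. The authors demultiplexed with bcl2fastq 2.20.0, trimmed with cutadapt 1.15 and used build hg38, per the submitters' processing notes; which aligner, cluster caller and gene annotation they used is not given in the sources used here. Each deposited fraction is the share of a cluster's reads with a T-to-C change. The deposited count of total reads was found to be multiplied by the number of annotation features a cluster touches: total reads times fraction over crosslinked reads was a whole number (tolerance 0.02) in 7969 of 7969 and 2752 of 2752 clusters with a single identifier, and above 1 in 33.8% and 35.1% of clusters. Identical sequences with different multiples had equal counts after division in 132 of 137 and 67 of 69 sets. Total reads and T-to-C locations were therefore divided by this number; deposited totals of 147453 and 75383 became 95561 and 53598 reads. For the 34 and 8 clusters merged from 2 identifiers, the multiple was first divided by 2.

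Each cluster was given 1 class from its terms, in the order 3′ splice site, 5′ splice site, coding, 3′ UTR, 5′ UTR, exon, intron. RNA types came from deposited names, RefSeq spans (GRCh38.p14) and shared 18-nt stretches; U2-like clusters lay within 2 edits of a cluster named RNU2. Merged gene names were split on the bar, and reads were summed under the first. Named genes were the 10 with most reads in each library, the 12 with the largest ratio each way among those with at least 20 reads in both, and members of fixed lists with at least 20 reads in either; sequences were those of 3′ splice-site clusters with most reads, of which some are not reported here. Members and lists were chosen with earlier results of these data known. No genome or exon annotation was used, so distances to annotated intron ends were not computed, and distinct read sequences could not be counted from these tables. Python 3.11.15, pandas 2.3.3 and scipy 1.17.1 were used, and the scripts were tested on simulated data. Alternatives left out 5.8S-named clusters, raised or matched the read minimum, took equal cluster numbers or changed scaling; leaving out all ribosomal DNA, collapsing sequence families, using deposited totals, adding minus-strand boundaries and keeping only genes with a cluster in both libraries were chosen after seeing the data.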

Additional observations from a re-analysis of the deposited data

How the results depend on the processing

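Of 134 values recomputed under other settings, 67 stayed within their counting error, spread or, for counts, 1.5 times, 61 moved further and 6 turned direction; where no cause is given, the cause was not tested. Differences are 1.5 minus 15 U/ml in percentage points. Without 5.8S-named clusters, read shares differed by 2.32 for the 3′ splice-site label, 4.83 for 3′ boundaries and 1.151 for introns, the last turned from -7.09, and without all ribosomal DNA the intron difference was 5.57. With at least 10 reads per cluster, cluster shares differed by 3.97 for the label, 8.76 for 3′ boundaries, -3.16 for introns (turned from 9.07), 5.13 for CDS (turned from -3.59) and 7.24 for a single T-to-C location, T by 7.91, GAAGA by -7.65 and a last base G by -6.94. Read shares then differed by 1.20, 3.07 and -12.6 for the label, 3′ boundaries and introns, and overlap was 12.6% and 28.7%. With the minimum matched as a share of reads, the ratio of cluster numbers was 0.859, median length differed by 2 nt, introns by 1.04, a single location by -19.3 (turned from 3.59), T by 7.65, TTTTT by 10.7, last base G by -1.47, and read shares by 0.909, 2.46 and -7.70, with overlap of 16.5% and 14.2%. With equal numbers of top clusters (a ratio of 1), the differences were 2 nt, 6.16 for 3′ boundaries, 1.99 for introns, -16.9 for a single location (also turned), 7.93 for T, 11.5 for TTTTT, -1.56 for last base G, and 1.16, 2.97 and -7.80 for read shares, with overlap of 14.6% both ways. With 1 cluster per sequence family, CDS differed by -6.18, a single location by 0.231, T by 7.96, TTTTT by 11.1, and read shares by 5.12 for 3′ boundaries and -4.97 for introns, with overlap of 4.73% and 14.7%. Over genes with a cluster in both libraries, protein-coding clusters differed by 7.94 for T and 10.04 for TTTTT. Deposited totals gave read-share differences of 5.31, 10.7 and -8.83 for the label, 3′ boundaries and introns. Requiring 50% of both clusters to overlap gave 5.47% and 15.9%. Genes past 2-fold toward 1.5 and 15 U/ml, 6 and 15 as reported, were 0 and 7 with at least 50 reads, 36 and 45 with at least 10, 33 and 72 with deposited totals, and 3 and 27 with 1 cluster per family; toward 15 U/ml they were 24 without 5.8S reads in the totals and 33 without ribosomal DNA. Depth limits most clusters, with a median of 6 reads. The settings with equal numbers and with a matched minimum kept all 2760 clusters at 15 U/ml, with a minimum of 4 reads. At 1.5 U/ml their minimums were 7 and 8 reads, so these settings compare clusters of unlike depth. The planned use of distinct read sequences was not run, because these tables hold none, and distances to annotated intron ends were not computed. No paired analysis was possible because each strength has 1 library.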
